A study of Homo sapiens with 6 samples.

Results

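Haem breakdown and iron handling were described through 10 genes in LX2, an established cell line of human hepatic stellate origin, exposed to Syy or kept as control. The genes were taken by name: HMOX1 and HMOX2, which open the haem ring, BLVRA and BLVRB, which reduce the product, the ferritin chains FTL and FTH1, the transferrin receptor TFRC, the iron exporter SLC40A1, the iron sensor IREB2 and the haem-making enzyme FECH. All 10 were among the 18365 genes with a probe of their own on the array. Each gene was read from its brightest probe, by mean over the arrays, among those annotated to it alone. The 10 genes had 14 such probes, and 7 of the genes had a single one; another probe was annotated to FTH1 together with the pseudogene FTH1P3. Syy, known here only by its code name, was said by the submitters to block release of material from stellate cells. Each group held 3 one-channel arrays of LX2 RNA, 3 labelled Syy and 3 labelled control, with no genotype or allele recorded for either. Dose, exposure time and vehicle are not given in the labels used here.

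Haem oxygenases cut haem into biliverdin, carbon monoxide and ferrous iron, and biliverdin reductases turn biliverdin into bilirubin. HMOX1 is the inducible form, switched on by haem, oxidants and NRF2 and held down by BACH1, while HMOX2 is made steadily. Freed iron is stored in ferritin shells of heavy and light chains or leaves the cell through SLC40A1, and TFRC brings transferrin-bound iron in. IREB2 and ACO1 encode the iron regulatory proteins, which bind stem-loops in ferritin and TFRC transcripts when iron is scarce, blocking ferritin translation and protecting TFRC RNA from decay.

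Values are given on 2 scales, the deposited intensity, which is linear, and a normalized log2 scale, log2(intensity + 16) after quantile normalization over the 6 arrays. Differences are Syy minus control on the normalized log2 scale, which understates the change of dim probes, and a gene was called at a limma adjusted p under 0.05 over all genes. The median deposited intensity of all probes was 18.4 to 27.3 over the arrays, whose small number limits precision. Spearman correlations over all probes were 0.968 to 0.977 between the groups and at least 0.973 within them. Of 15 stellate cell and myofibroblast markers 12 lay above the median of all probes, with VIM the brightest, while COL1A2, DES and LRAT lay below it. Syy replicate 3 stood apart: its summed intensity over 17 hepatocyte markers was 28464, while Syy replicates 1 and 2 had 696 and 1207 and the controls 698 to 1054. Where a call among the 10 genes changed without this array, both values are given. Nothing in the labels places the replicates in separate cultures, so each p-value reflects the spread among these arrays alone, which may be technical.

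Of the 10 genes, 3 fell with Syy (HMOX1, FTH1 and BLVRB), 1 rose (FECH) and 6 were not called. Over all genes 11.5% were called lower and 11.0% higher, so 22.4% in either direction. The median difference of the 10 genes was -0.28, against 0.00 over all genes. Leaving out Syy replicate 3 raised the count of lower genes to 5, with TFRC and IREB2 added, against 10.7% of all genes called lower in that fit. In 7 of the 10 genes the normalized Syy values lay wholly on 1 side of the control values, as they did in 38.3% of all genes. Scaling moved the balance over all genes, as the share of calls that were higher was 48.9% here, 60.0% with median centring and 81.0% with no normalization. RNA from whole cultures was measured, so less RNA per cell cannot be told apart from fewer cells that make it.

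**Figure D1:**
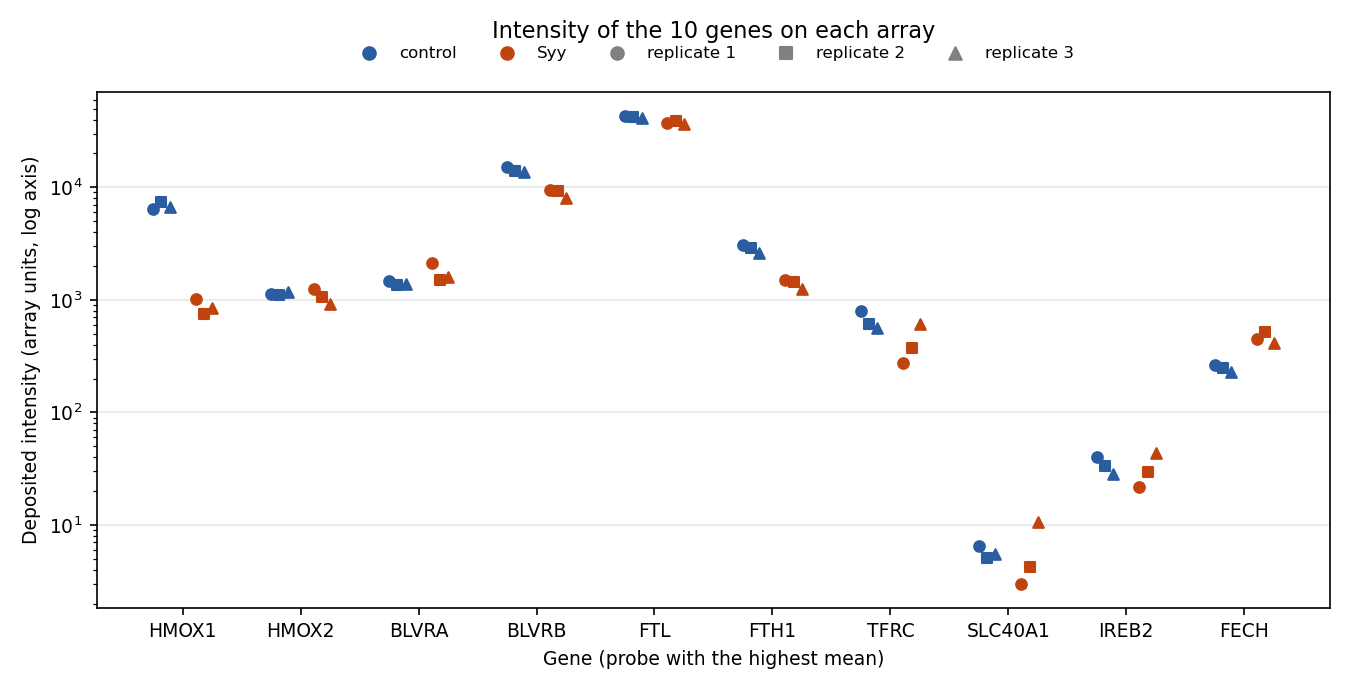
Deposited intensity (array units, log axis) of the probe used for each of the 10 genes on each of the 6 arrays, with controls in blue, Syy in orange and a symbol for each replicate. The Syy points of HMOX1, BLVRB, FTH1 and FTL lie below all control points and those of FECH and BLVRA above, though FTL and BLVRA were not called. Those of TFRC, IREB2 and SLC40A1 spread out with Syy replicate 3 on top.

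HMOX1 lost most of its signal. Its deposited intensity was 6463, 7366 and 6668 on the control arrays and 1009, 743 and 844 on the Syy arrays. The highest Syy array thus lay far below the lowest control, and no control array stood apart. On the normalized log2 scale the control mean was 12.76 ± 0.11 and the Syy mean 9.63 ± 0.26 (SD, n = 3 each). The limma difference was -3.13 ± 0.14 (SE), with a 95% interval from -3.47 to -2.78 and an adjusted p of 0.00118, so the transcript was 8.74-fold lower. Even so the Syy signal stayed well above the array median, so the transcript was still detected with Syy.

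HMOX2, the constitutive haem oxygenase, differed far less. On its brighter probe the deposited intensity was 1139, 1094 and 1165 in controls and 1251, 1071 and 914 with Syy, so the deposited values of the groups overlapped. After normalization the Syy values, 10.19, 9.91 and 9.79, lay under the control values of 10.23, 10.20 and 10.38, the first by a narrow margin. The difference of -0.31 ± 0.12 (SE; 95% interval -0.60 to -0.02) was not called in limma (adjusted p = 0.119). Its second probe read -0.26 and was not called either (adjusted p = 0.113 over all probes). Without Syy replicate 1 the difference of HMOX2 was -0.43 and passed (adjusted p = 0.0339), and in the values as deposited it was -0.08.

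POR encodes the reductase that hands electrons to both haem oxygenases and to cytochromes P450. It fell by 0.30 on the normalized log2 scale, from 9.57, 9.71 and 9.71 to 9.36, 9.39 and 9.34 (limma adjusted p = 0.0171). The groups did not overlap on that scale. In deposited intensity they did, at 704, 767 and 700 in controls and 702, 756 and 680 with Syy. The call of POR was lost under 6 of 15 alternatives, and over the alternatives the difference ran from -0.35 to -0.02.

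The 2 biliverdin reductases did not move alike. BLVRB, which reduces the beta isomer and also flavins, fell: its deposited intensity was 14999, 13940.2 and 13603 in controls and 9421, 9183.5 and 7985 with Syy. All Syy arrays lay below all controls, and the replicates of a group were close together. The normalized log2 means were 13.79 ± 0.03 and 13.09 ± 0.05 (SD, n = 3 each), a difference of -0.69 ± 0.05 (SE; adjusted p = 0.00224) or 1.62-fold lower. BLVRA, the reductase of the alpha isomer that haem oxygenases release, had intensities of 1465, 1349.6 and 1383 in controls and 2118, 1509 and 1607 with Syy. In deposited intensity all Syy arrays of BLVRA thus lay above all controls. On the normalized log2 scale its groups overlapped, at 10.58, 10.50 and 10.61 against 10.95, 10.41 and 10.64. Its difference was 0.10 ± 0.14 (SE; 95% interval -0.24 to 0.45) and was not called (adjusted p = 0.666). The sign of BLVRA depended on Syy replicate 1, without which it read -0.04.

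Promoter sequence came from RefSeq (GRCh38.p14), where 8 of the 10 genes had 10 entries; HMOX1 and FTH1 had none. BLVRB is shown because it was the only called fall with an entry. The run is the 250 bases before its start, chr19:40465746-40465995 on the minus strand, with each CCGCCC in capitals, the GC box read by SP1-type factors, on either strand (GGGCGG on the other).
BLVRB: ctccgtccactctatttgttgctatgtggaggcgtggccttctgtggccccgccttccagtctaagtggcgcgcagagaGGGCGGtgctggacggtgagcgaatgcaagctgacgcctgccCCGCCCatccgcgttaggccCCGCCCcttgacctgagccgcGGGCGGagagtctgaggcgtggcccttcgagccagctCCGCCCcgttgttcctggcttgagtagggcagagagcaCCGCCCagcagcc
The window held 6 GC boxes. At least 1 was present in 42.6% of all 35116 promoter windows of this length, and the share with as many as 6 was not counted. TFRC and SLC40A1 held 3 each and FTL, FECH and BLVRA 2 each. The 2 entries of IREB2 held 2 and 0, and those of HMOX2 1 and 0. TGACNNNGC, the core of the antioxidant response element that NRF2 binds and BACH1 blocks, was not among its letters on either strand.

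The ferritin chains gave different readings, and the heavy chain gave different readings on different probes. FTH1 encodes the heavy chain, which oxidizes iron for storage. Its own probe read 3101, 2879.7 and 2596 in deposited intensity in controls and 1490.1, 1436 and 1259 with Syy. All Syy arrays lay well below all control arrays. The normalized log2 mean went from 11.56 ± 0.08 to 10.35 ± 0.09 (SD, n = 3 each), a difference of -1.21 ± 0.07 (SE; adjusted p = 0.00194), or 2.31-fold lower. The brighter probe annotated to both FTH1 and FTH1P3, a processed copy of the gene, read 14.42, 14.53 and 14.44 on the normalized log2 scale in controls and 14.39, 14.42 and 14.46 with Syy. The groups overlapped there, and the difference was -0.04 ± 0.05 (SE; adjusted p = 0.661 over all probes). FTH1 has many near-identical copies in the genome, and probe sequences were not used here, so which transcripts each probe read was not tested and the fall of FTH1 is uncertain to that extent.

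FTL encodes the light chain, which helps form the mineral core. It was among the brightest probes, at 43159, 42491 and 41306 in controls and 37052, 39039 and 36169.96 with Syy, which is 56.6% to 68.6% of the highest intensity on its array. The Syy arrays all read lower, but the normalized log2 difference was only -0.08 ± 0.04 (SE; 95% interval -0.19 to 0.03) and was not called (adjusted p = 0.271). With median centring in place of quantile normalization it was -0.31 and passed (adjusted p = 0.0346). Ferritin is also set by translation, which these arrays do not read. The start of the FTL transcript is shown for that control point, the iron-responsive element bound by the products of IREB2 and ACO1. The run is chr19:48965333-48965358 on the plus strand of GRCh38.p14, and capitals run from the bulged C of the element to the last base of its loop (C, any 5 bases, then CAGTGN).
FTL: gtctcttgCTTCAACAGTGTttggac
FTL was the only one of the 8 genes with an entry whose first 50 transcribed bases held this pattern on the transcript's strand, and 1.67% of all promoter entries held it there. A match in letters is not proof of a folded element.

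**Figure D2:**
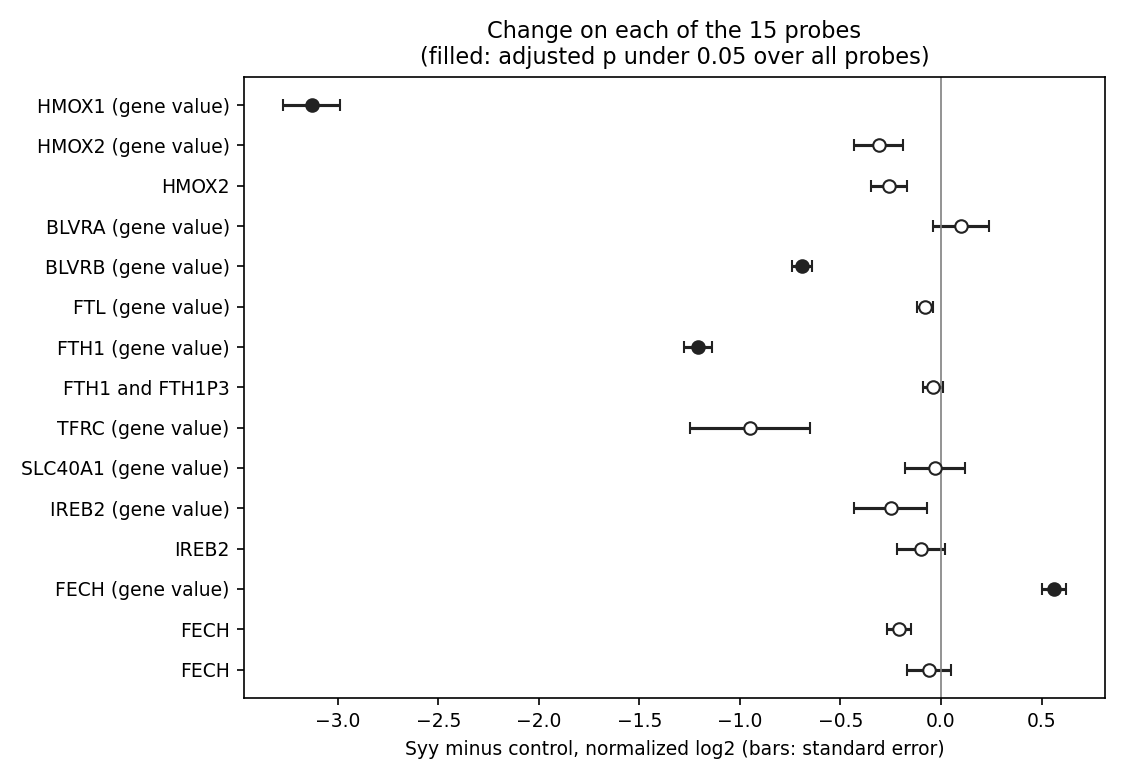
Difference between Syy and control (normalized log2) on each of the 15 probes annotated to the 10 genes, with standard errors; filled points had an adjusted p under 0.05 over all probes. HMOX1, FTH1 and BLVRB are filled on the left and 1 FECH probe on the right, while the probe shared by FTH1 and FTH1P3 and the other 2 FECH probes lie between -0.21 and -0.04, unfilled.

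In the fit over all 31741 probes, 3 of the 14 probes annotated to a single one of these genes were called lower and 1 higher, against 8.86% and 8.99% of all probes. Both probes of HMOX2 had the same sign.

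Iron import and export were read from TFRC and SLC40A1. TFRC read lower with Syy but was uneven: its deposited intensity was 789, 607 and 557 in controls and 274, 374 and 614 with Syy. Syy replicate 3 lay within the control range in deposited intensity, and the other Syy arrays lay well below it. After normalization all Syy values, 8.10, 8.38 and 9.21, were under the control values of 9.72, 9.41 and 9.40. The difference of -0.95 ± 0.29 (SE; 95% interval -1.67 to -0.22) was not called (adjusted p = 0.0718). Without Syy replicate 3, the array with the hepatocyte transcripts, it was -1.27 and passed (adjusted p = 0.0112), and among genes above the median of all probes it passed at the same size (adjusted p = 0.0276). The part of the hepatocyte transcripts in the TFRC reading of that array was not tested.

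SLC40A1, which encodes ferroportin, lay at the floor of the array. Its deposited intensity was 6.51, 5.07 and 5.52 in controls and 2.96, 4.21 and 10.58 with Syy, and its probe mean exceeded those of 25.7% of probes. The difference of -0.03 ± 0.15 (SE; adjusted p = 0.919) carries no direction, and it read 0.08 without Syy replicate 1 and 0.02 without Syy replicate 2. A change of ferroportin was not detectable at this signal.

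IREB2, for iron regulatory protein 2, had 2 dim probes. The brighter read 40.1, 33.5 and 28.5 in deposited intensity in controls and 21.7, 29.5 and 43.3 with Syy, near the median of the arrays, and the groups overlapped. The difference was -0.25 ± 0.18 (SE; 95% interval -0.70 to 0.20) and was not called (adjusted p = 0.397). Again Syy replicate 3 was the highest of the Syy arrays, and without it the difference was -0.45 and passed (adjusted p = 0.0284). The second probe read -0.10 (adjusted p = 0.633 over all probes).

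ACO1, the other iron regulatory protein, moved up. It encodes cytosolic aconitase, which becomes an RNA-binding protein when it lacks its iron-sulphur cluster. Its normalized log2 values were 7.27, 7.64 and 7.60 in controls and 8.49, 8.44 and 8.69 with Syy, with no overlap. The rise was 1.04 ± 0.12 (SE; limma adjusted p = 0.00470), or 2.05-fold. The call was lost in 1 of 15 alternatives, without Syy replicate 3 and control replicate 2 together, where the difference was 1.03 (adjusted p = 0.0520).

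The list for iron sensing and the hepcidin axis, which holds ACO1 and IREB2, had 15 measured genes. Of these 3 rose, none fell and 12 were not called, with a median difference of 0.07. That is 20.0% higher, against 11.0% of all genes, of which 11.5% were lower. Besides ACO1 the called genes of the list were the iron chaperones PCBP1, which delivers iron to ferritin (0.62, adjusted p = 0.0191), and PCBP2 (0.33, adjusted p = 0.0151). PCBP1 lost its call without Syy replicate 1 or 2 or without control replicate 1 or 3 (adjusted p from 0.0594 to 0.0740). PCBP2 read -0.37 when its probes were averaged (adjusted p = 0.184). Without control replicate 1 or without control replicate 3 the count of the list was 1 higher gene. In the values as deposited 5 genes were higher. Without Syy replicate 1 or without Syy replicate 3, 1 gene of the list was called lower.

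FECH, ferrochelatase, puts iron into protoporphyrin in the last step of haem synthesis. Its brightest probe rose: the deposited intensity was 266, 250.5 and 228 in controls and 451, 522 and 416 with Syy. All Syy arrays lay above all controls. The normalized log2 mean went from 8.19 ± 0.02 to 8.75 ± 0.11 (SD, n = 3 each), a difference of 0.56 ± 0.07 (SE; adjusted p = 0.00470), or 1.48-fold. The other 2 FECH probes did not show this. The middle one read 6.90 ± 0.16 in controls and 6.84 ± 0.14 with Syy, a difference of -0.06 (adjusted p = 0.772 over all probes), with overlapping groups. The dimmest, below the median of all probes, read -0.21 (adjusted p = 0.0855). Averaged over its 3 probes FECH read 0.10 and was not called (adjusted p = 0.250), so its rise rests on 1 probe.

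The FECH promoter is shown as the only entry among these genes with the letters TGACNNNGC in the 250 bases before the start, although FECH did not fall. Capitals mark the match, which is on the other strand and so appears here as its reverse complement, in the run at chr18:57586703-57586952, minus strand, GRCh38.p14.
FECH: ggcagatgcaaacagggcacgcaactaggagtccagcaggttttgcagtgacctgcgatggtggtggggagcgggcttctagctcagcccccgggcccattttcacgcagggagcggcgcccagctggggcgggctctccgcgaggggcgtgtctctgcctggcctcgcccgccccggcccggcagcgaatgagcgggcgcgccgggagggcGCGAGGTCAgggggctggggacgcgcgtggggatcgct
Of all 35116 windows, 10.9% held this core on either strand, so a match is common. Of the known control regions of HMOX1, the distal enhancers lie further upstream of the gene than such a window reaches.

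In the list of haem synthesis, 3 of 8 measured genes rose, none fell and 5 were not called, against 11.0% higher among all genes; the median difference was 0.18. CPOX, coproporphyrinogen oxidase of the mitochondrion, rose from 8.48, 8.44 and 8.36 to 8.98, 9.06 and 8.91 on the normalized log2 scale (0.56 ± 0.06, SE; limma adjusted p = 0.00415). ALAD, which makes porphobilinogen, rose by 0.42 (adjusted p = 0.0183), a call lost under 5 of 15 alternatives. FECH was the third. ALAS1, the rate-limiting enzyme outside red cells, read 11.97 in controls and 11.84 with Syy, which did not pass (adjusted p = 0.379). When probes were averaged 1 gene of the list was called higher.

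**Figure D3:**
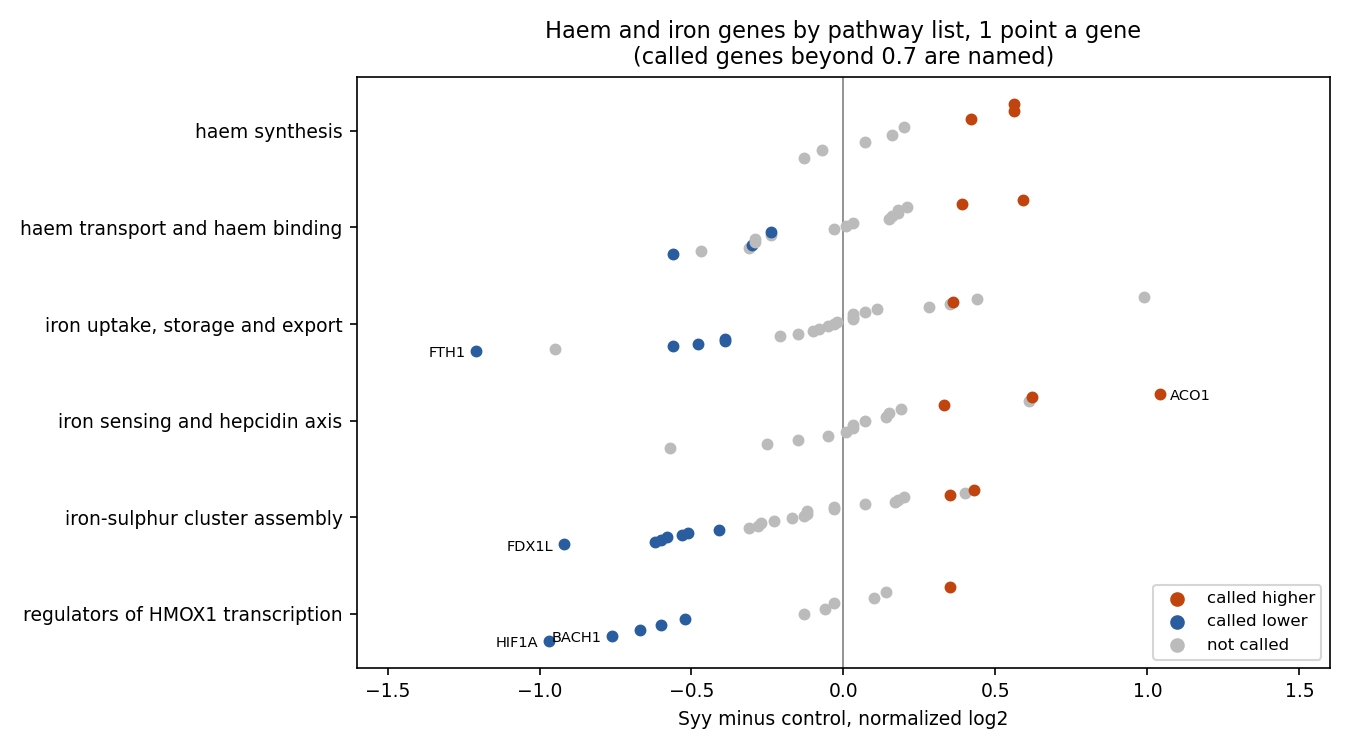
Difference between Syy and control (normalized log2) for each measured gene of 6 lists of haem and iron genes, with 1 point a gene, orange called higher, blue called lower and grey not called. HMOX1 regulators and iron-sulphur genes hold blue points on the left, haem synthesis and iron sensing hold called points on the right alone, and FTH1 and ACO1 lie farthest out among called genes.

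Of 23 genes for iron uptake, storage and export, 5 were called lower, 1 higher and 17 were not called. The median difference was -0.03. All genes had 11.5% lower and 11.0% higher, against 21.7% and 4.35% of this list. Besides FTH1 the lower genes were CYBRD1, a ferric reductase (-0.48, adjusted p = 0.0137), STEAP1, of a family of metal reductases (-0.56, adjusted p = 0.0181), the mitochondrial iron importer SLC25A28 (-0.39, adjusted p = 0.0164) and NCOA4, which takes ferritin to lysosomes (-0.39, adjusted p = 0.0300). STEAP3, the ferrireductase of transferrin endosomes, rose by 0.36 (adjusted p = 0.0173). STEAP3 lost its call in 4 of 15 alternatives (adjusted p up to 0.139), and the list had 0 higher genes under the replicate block or once control replicate 1 or 2 was left out. In the values as deposited 3 were higher, and 2 with median centring. NCOA4 lost its call under 9 of 15 alternatives, SLC25A28 under 6, CYBRD1 under 3 and STEAP1 under 7 of its 14. CYBRD1, STEAP1 and NCOA4 were dim, with mean deposited intensities of 34.5, 23.7 and 46.4 in controls and 23.7, 12.6 and 37.1 with Syy. The median of all probes was 18.4 to 27.3 over the arrays, so the share of lower genes rests partly on probes near it. Lower genes numbered 3 without Syy replicate 1 or without control replicate 1, 2 without control replicate 2, and 1 both with the replicate block and in the values as deposited. TF, for transferrin, read 7.22 in Syy replicate 3 and 4.36 to 4.61 elsewhere on the normalized log2 scale, and was not called (adjusted p = 0.417); it is among the hepatocyte markers that stood out on that array.

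Of 18 genes for haem transport and haem binding, 2 rose, 3 fell and 13 were not called, with a median of -0.01. The shares were 11.1% higher and 16.7% lower, near the 11.0% and 11.5% of all genes. LRP1, the receptor that clears haem bound to haemopexin, rose by 0.59 (adjusted p = 0.00659), and PGRMC2, a haem chaperone, by 0.39 (adjusted p = 0.0381). The lower genes were ABCG2, an exporter that carries porphyrins (-0.56, adjusted p = 0.0129), POR, given above, and HEBP2, a haem-binding protein (-0.24, adjusted p = 0.0339). HEBP2 lost its call under 12 of 15 alternatives and PGRMC2 under 7. SLC48A1, a haem importer of endosomes, read -0.47 without passing (adjusted p = 0.0654). The counts were small and fragile: 1 gene was higher without Syy replicate 2, without Syy replicate 3 or without any 1 control, and the lower genes numbered 1 without control replicate 2 and 0 without control replicate 3. Median centring left 1 gene of the list lower, and the values as deposited and the replicate block left none; with the block 1 was higher.

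Iron-sulphur cluster assembly, which uses imported iron, had 7 of 24 genes lower and 2 higher, with 15 not called and a median of -0.15. Over all genes 11.5% were lower and 11.0% higher, against 29.2% and 8.33% of this list. FDX1L, a mitochondrial ferredoxin, was the most changed: its normalized log2 mean was 14.95 in controls and 14.03 with Syy, a fall by 0.92 ± 0.06 (SE; adjusted p = 0.00219). CIAO1, NARFL and NUBP2, of the cytosolic assembly machinery, fell by 0.53, 0.60 and 0.41, and IBA57, FDXR and FDX1, of the mitochondrial one, fell by 0.58, 0.51 and 0.62. MMS19, which passes clusters to target proteins, rose by 0.35 and the chaperone HSPA9 by 0.43. With probes averaged CIAO1 read -0.05 (adjusted p = 0.550) and IBA57 -0.12 (adjusted p = 0.475), so both calls rest on the brightest probe. Of 15 alternatives, FDXR lost its call in 9, FDX1 and NUBP2 in 8 each, IBA57, MMS19 and HSPA9 in 6 each and NARFL in 3, while FDX1L kept its call in all. Without Syy replicate 2 or 3 there were 4 lower genes, and without control replicate 2 or 3 there were 3. The higher genes numbered 0 without Syy replicate 1 or 2 or without control replicate 1 or 3, and 1 without control replicate 2. With no normalization 3 were lower and 4 higher, and with the replicate block 3 were lower and 0 higher.

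Among 11 regulators of HMOX1 transcription, 5 fell, 1 rose and 5 were not called, with a median of -0.13. These shares of 45.5% lower and 9.09% higher stand beside 11.5% and 11.0% of all genes. BACH1, which represses HMOX1, read 6.88, 6.61 and 6.86 in controls and 5.89, 6.15 and 6.04 with Syy on the normalized log2 scale, with no overlap, and fell by 0.76 ± 0.10 (SE; adjusted p = 0.00688). HIF1A, which activates HMOX1 in hypoxia, fell by 0.97 (adjusted p = 0.00770), and HSF1, of the heat shock response, by 0.67 (adjusted p = 0.00318). NFE2L2 and KEAP1, for NRF2 and its inhibitor, were the remaining lower genes, and the call of NFE2L2 was lost under 9 of 15 alternatives. NFE2L1, a relative of NFE2L2, rose by 0.35 (adjusted p = 0.0166), and the small MAF partners MAFF, MAFG and MAFK were not called. In the values as deposited 1 gene was lower, and BACH1 (-0.51, adjusted p = 0.0544) and HIF1A (-0.67, adjusted p = 0.0551) lost their calls. With probes averaged BACH1 read -0.30 (adjusted p = 0.0106) and HIF1A -0.45 (adjusted p = 0.0354), so the size of both falls rests on the brightest probe. With the replicate block 2 were lower and 0 higher. NFE2L1 was not called without control replicate 2 or without control replicate 3.

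Related genes were also set against each other within an array, which asks whether they changed unequally and leaves out shifts common to both. HMOX1 minus HMOX2 was 2.43, 2.66 and 2.38 on the control arrays and -0.32, -0.55 and -0.13 on the Syy arrays in normalized log2. BLVRA minus BLVRB was -3.24, -3.27 and -3.15 in controls and -2.18, -2.71 and -2.39 with Syy. FTH1 minus FTL was -3.67, -3.74 and -3.86 in controls and -4.76, -4.94 and -4.97 with Syy. In these 3 pairs the groups did not overlap, and the differences of -2.82, 0.80 and -1.13 changed no sign under the other scalings and pseudocounts. FTH1 was read here from its own probe. The brighter probe shared with FTH1P3 changed by -0.04 and FTL by -0.08, so the unequal ferritin change rests on the FTH1 probe alone. TFRC minus FTH1 changed by 0.26 with overlap. The fifth pair, TFRC with SLC40A1, is not read, since SLC40A1 lay at the floor and the pair would restate TFRC. Exact two-sided permutation tests gave p = 0.1 for the first 3 pairs, the smallest that 3 arrays against 3 allow, and p = 0.8 for TFRC and FTH1 (0.125 and 0.8 adjusted over the 5 pairs), so this design cannot reach 0.05.

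**Figure D4:**
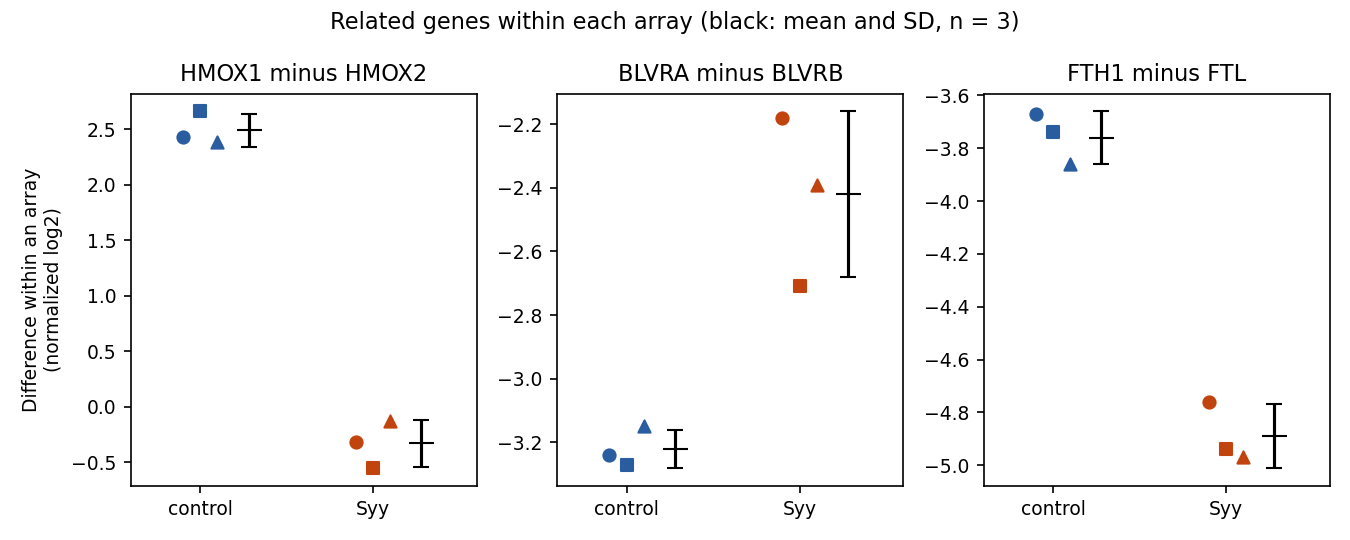
Difference between 2 related genes within each array (normalized log2) for HMOX1 and HMOX2, BLVRA and BLVRB, and FTH1 and FTL, with 1 symbol a replicate and the mean and SD (n = 3) in black; each panel has its own axis. The 3 Syy points lie below the 3 control points in the first and last panels and above them in the middle one. FTH1 is read from its own probe, not from the one shared with FTH1P3, which did not show its fall.

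The genes whose centred profile over the 6 arrays lay nearest to HMOX1, by Euclidean distance in normalized log2 among genes above the median of all probes, were NFKBIL1 (0.66), C10orf10 (0.74), SLC7A11 (0.93), HBD (0.95) and DYNLT3 (1.19). With Syy, NFKBIL1, C10orf10, HBD and DYNLT3 read 4.14, 4.38, 4.40 and 4.65, below the median of all probes and near the floor of the scale. They passed the filter through the control arrays alone, so the floor limits their differences and distances and their order is not read. SLC7A11 stayed above the median with Syy, at 5.69 against 8.36 in controls, a difference of -2.67. These genes were picked for a profile like that of HMOX1, so their falls follow from that choice and are not separate results. SLC7A11 imports cystine, and HBD encodes the delta chain of haemoglobin. Nearest to FTH1 were RN7SK, SCG5 and TBX2 (0.20 to 0.22), nearest to BLVRB were LINC00116, HSF1 and CAB39L (0.10 to 0.11), and nearest to FECH were SLC35E1, HIF1AN and BCAR3 (0.05 to 0.07). Distances between small profiles are small by construction, and they describe these 6 arrays only.

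Markers of cells with heavy haem or iron traffic were read beside these results. Of 12 macrophage markers 5 lay above the median of all probes, with CD163, MARCO, VSIG4, C1QA, C1QB, ITGAM and PTPRC below it. The summed deposited intensity of all 12 was 3287 to 4053 with Syy and 2065 to 2352 in controls. CD14 alone averaged 2727 with Syy and 1449 in controls, so the sums largely follow that gene. It was the 1 called gene of the list (0.72, adjusted p = 0.00661). Of 7 erythroid markers none was called and the sum was 174 to 262 with Syy and 224 to 297 in controls; ALAS2, EPB42 and KLF1 lay below the median of all probes. Of 17 hepatocyte markers 1 rose (SERPINA1, 1.59, adjusted p = 0.0436) and 16 were not called, of 9 endothelial markers none was called, of 7 cholangiocyte and epithelial markers 1 rose, and of 15 stellate cell markers 5 rose and 1 fell. Among all genes 11.0% were called higher and 11.5% lower. The summed intensity was 95 to 208 for the endothelial list, 1022 to 1494 for the epithelial list and 67858 to 84993 for the stellate list over all arrays. The part of the macrophage, stellate and other markers in the results was not tested. Without Syy replicate 3, which held the high hepatocyte sum, HMOX1 was at -3.17, BLVRB at -0.66, FTH1 at -1.18 and FECH at 0.62, all called.

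**Figure D5:**
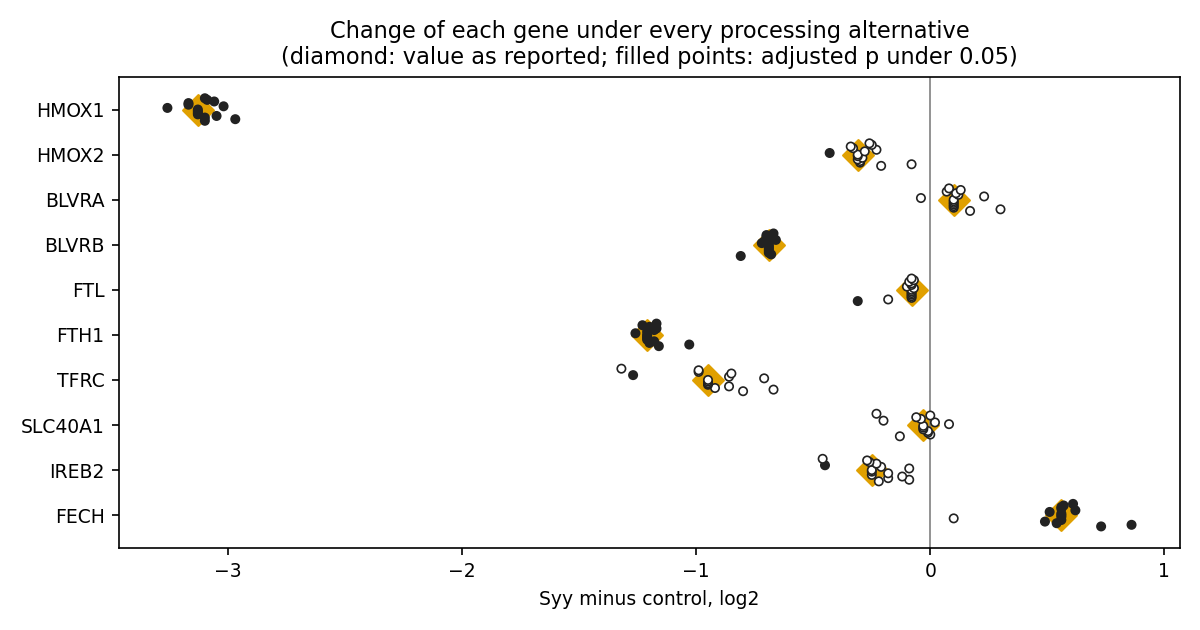
Difference between Syy and control (log2) for each of the 10 genes under each processing alternative, with the reported value as a diamond and points filled where the adjusted p was under 0.05. HMOX1, BLVRB and FTH1 stay filled and left of 0 in all 15 alternatives, and FECH has 1 open point. TFRC runs from -1.32 to -0.67 with 2 filled points. Averaging probes could not move HMOX1, BLVRB or FTH1, each with 1 probe annotated to it alone.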

How the data were processed

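The deposited table held Cy5 intensity on a linear scale for 31741 probes and 6 one-channel arrays, per the labels, which do not state the scanner, background method or scaling. Of these probes 24740 had 1 gene symbol in the platform annotation, which can be old, 977 had several and 6024 were unnamed here. Intensities, of which some lay at or below 0, became log2(intensity + 16) and were quantile normalized over the arrays, because their distributions differed. The test was limma's lmFit and eBayes (version 3.58.1, R 4.3.3), two-sided and with no covariate, with Benjamini-Hochberg adjustment over 18365 genes or all probes and a threshold of 0.05. The steps were tested on simulated data. The 10 genes, the lists and the alternatives were chosen with earlier results of these data known. Named genes were all 10, the called genes of each haem or iron list or else those with the smallest p, and the profiles nearest to each called gene (5 for HMOX1, 3 otherwise). A few list genes named beyond that rule were chosen after their values were seen: ALAS1, SLC48A1, TF, MAFF, MAFG and MAFK. Alternatives changed the scaling, pseudocount, filter, probe choice, variance model, replicate block and arrays used.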

Additional observations from a re-analysis of the deposited data

How the results depend on the processing

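The calls of HMOX1, BLVRB and FTH1 held under all 15 alternatives, and that of FECH under 14. Averaging probes could not change the first 3, since each had 1 probe annotated to it alone. The brighter probe shared by FTH1 and FTH1P3 took no part in the averaging and read -0.04. Leaving out 1 array at a time gave 3 to 5 lower and 1 higher among the 10 genes (3 to 5 and 1 among their probes), 10 to 17 lower and 5 to 12 higher over the haem and iron lists together (20 and 12 with all arrays), and 1088 to 1965 lower and 1197 to 1787 higher over all genes (2104 and 2017). With no normalization 738 genes were lower and 3155 higher over the whole array, and 5 and 19 over the lists. With the replicate block these counts were 852 and 1051, and 6 and 6, and no call of the 10 genes changed; same-numbered arrays did not deviate together (r = -0.08, -0.08 and -0.03), so the labels' numbers were not taken as pairs. Without Syy replicate 3 and control replicate 2 together, 537 genes were lower and 566 higher, and 4 list genes were lower and 4 higher. Of the probes of the 10 genes 0 were lower and 0 higher there (HMOX1, BLVRB and FTH1 each at a limma adjusted p of 0.0555 over all probes). Adjusted over genes in the same setting, HMOX1, BLVRB and FTH1 each stayed called at 0.0451. Why the probe calls were lost was not tested. Averaging probes left 0 of the 10 genes higher, and median centring gave 5 lower probes. Signs turned for values that were not called: BLVRA (-0.04 without Syy replicate 1, and -0.04 to 0.23 over the arrays left out), SLC40A1 (0.08 and 0.02 without Syy replicate 1 and 2, in a range of -0.20 to 0.08), the middle FECH probe (0.09 after median centring, 0.22 as deposited, 0.03 without Syy replicate 1, in a range of -0.14 to 0.03) and the dimmer IREB2 probe (0.03 as deposited, 0.01 without Syy replicate 2, in a range of -0.20 to 0.01); PCBP2, called on its brightest probe, read -0.37 with its probes averaged. The cause was not tested. SLC40A1 and STEAP1 had no value among probes above the median. Dim probes such as those of SLC40A1 and IREB2 limit what could be seen.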

Other observations

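Globin genes, the best known haem carriers, were looked at after HBD had appeared among the profiles nearest to HMOX1, so they were chosen after values were seen. HBD read 6.96 in controls and 4.40 with Syy on the normalized log2 scale, near the floor of the scale with Syy. It was picked for a profile like that of HMOX1 and passed the filter through the control arrays alone. Its fall is therefore not a result apart from that choice. AHSP, which stabilizes free alpha chains of haemoglobin, had means of 6.99 and 5.29 and was not called (limma adjusted p = 0.118). Its Syy arrays disagreed, at 4.17, 6.75 and 4.96, against 7.01, 6.99 and 6.98 in controls. HBA1 read 6.63 and 6.19 (adjusted p = 0.335) and HBB 5.40 and 5.41 (adjusted p = 0.978). What the HBD probe detects in these cells was not tested.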
